A study of Mus musculus with 6 samples.

Results

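The nuclear-encoded subunits of the respiratory chain and of ATP synthase were followed across the cell classes of mouse white adipose tissue. Members were the rows of the gene table whose symbol starts with Nduf, Uqcr, Atp5, Cox4, Cox5, Cox6 or Cox7, or is Sdha, Sdhb, Sdhc, Sdhd or Cyc1. Symbols with -ps were left out, and 1 gene of the Cox7 family is not reported here. This left 97 of the 56980 rows, with 96 symbols, because Atp5o is listed under 2 identifiers. By symbol, 43 rows belong to complex I, 8 to its assembly factors (Ndufaf), 4 to complex II, 9 to complex III, 15 to complex IV and 18 to complex V. The rule rests on names and uses no measured value, but it was chosen with earlier results of these data known. The grouping follows the symbol also for Ndufa4, which is now regarded as a part of complex IV.

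The respiratory chain passes electrons from NADH and succinate to oxygen across the inner mitochondrial membrane. Complexes I, III and IV pump protons as they do so, and complex V uses the proton gradient to make ATP. Complex II, succinate dehydrogenase, also belongs to the tricarboxylic acid cycle. Most subunits are encoded in the nucleus and imported, whereas a small set of core subunits is made inside the organelle from mitochondrial DNA. White adipocytes hold comparatively few mitochondria and use them for lipid synthesis and fatty acid handling, while thermogenic adipocytes hold many.

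Single-nucleus RNA sequencing (snRNA-seq) was carried out on inguinal subcutaneous (SAT) and gonadal visceral (VAT) adipose tissue of female C57BL/6J mice. The 6 libraries form 3 groups of 2, namely young SAT (2 months old), older SAT and older VAT (24 months old). No genetic change or treatment is named for any of the groups, and VAT at 2 months was not used here. Tissue came from 2 mice per age, and which SAT and VAT libraries share a mouse is not stated, so libraries were compared without pairing, and p-values measure the spread between libraries. The age of 24 months is that of the sample labels, whereas the design text gives the older mice a somewhat higher age.

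After filtering, 27074 nuclei with 57672647 unique molecular identifiers (UMIs, counts of captured RNA molecules) remained, 2490 to 5776 nuclei per library. Members made up 256599 UMIs, or 4449 per 1000000 UMIs. Levels are given in this unit as CPM. The median nucleus held 6 member UMIs and 2.519% of nuclei held none, so single nuclei were not scored and counts were summed per library and class. The median row held 2382 UMIs. No UMI was counted for Ndufa13 and Ndufb4c, and 11 rows in all stayed under 200 UMIs. The sample labels give adipocytes as the cell type, but 7165 nuclei carried the name adipocyte, from clusters with the markers Adipoq, Plin1, Cidec and others, and 113 of those were in VAT replicate 2. A further 37 nuclei of VAT replicate 2 in these clusters lacked the markers in sum and got no class. Other nuclei were immune (10378), mesothelial (1773), fibro-adipogenic progenitor (FAP, 1343), epithelial (1241), endothelial (862) or of smaller classes, and 2861 nuclei (10.57%) were left without a class. Each class is a candidate identity from RNA alone ("-like"), and the clusters were built without the members among the variable genes. Of 26887 different barcodes, 186 occurred in more than 1 library. The library SAT 24 months replicate 2 stood apart. It had 7114 member CPM over all its nuclei, against 3240 to 4325 in the other 5, so results that rest on it are given with and without it.

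Within SAT, epithelial nuclei and adipocytes carried more member RNA than immune nuclei and FAPs, in every library. Levels are UMIs of all members per 1000000 UMIs (CPM) of the class. In adipocytes the level was 4719 and 4321 in SAT at 2 months, 3346 and 6322 in SAT at 24 months, and 2940 and 3334 in VAT at 24 months, for replicates 1 and 2. Only 1 library of SAT at 24 months was above both young libraries, the other was below both, and VAT lay below both young SAT libraries. In FAPs the level was 3327 and 3060, 3016 and 4767, and, in VAT, 3201 and 3118. In immune nuclei it was 3514 and 3181, 3169 and 4186, and 3065 and 3409. Apart from the raised library, both classes thus stayed between 3016 and 3514. In endothelial nuclei it was 5400 and 4146, 4149 and 12568, and 6642 and 3039, the widest spread of these classes. In epithelial nuclei it was 6891 and 6348 in SAT at 2 months, 6214 and 7260 in SAT at 24 months, and 4221 in the 23 nuclei of VAT replicate 2. Over libraries, the mean was 6187 ± 1177 (SD, n = 5) in epithelial nuclei, 5991 ± 3451 (n = 6) in endothelial nuclei, 4164 ± 1253 (n = 6) in adipocytes, 3421 ± 410.3 (n = 6) in immune nuclei and 3415 ± 671.7 (n = 6) in FAPs. Neighbours in this order differed by less than the SD of the higher one, with epithelial nuclei above endothelial nuclei in 3 of the 4 SAT libraries and adipocytes above immune nuclei and FAPs in all 4. In VAT adipocytes were not above both: replicate 1 had less member RNA in adipocytes than in FAPs and immune nuclei, and replicate 2 less than in immune nuclei. In SAT 24 months replicate 1, adipocytes without their cluster led by Cfd, Adipoq and Scd1 were at 3040. Among its nuclei under 1% mitochondrial UMIs, adipocytes were at 2611 and immune nuclei at 2747. Cytosolic ribosomal proteins differed too, at 18387 in epithelial nuclei, 8771 in immune nuclei, 5837 in FAPs and 2297.5 in adipocytes. Their bearing on the order was not tested. These are descriptions without a test, since clusters were formed on the same nuclei.

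**Figure D1:**
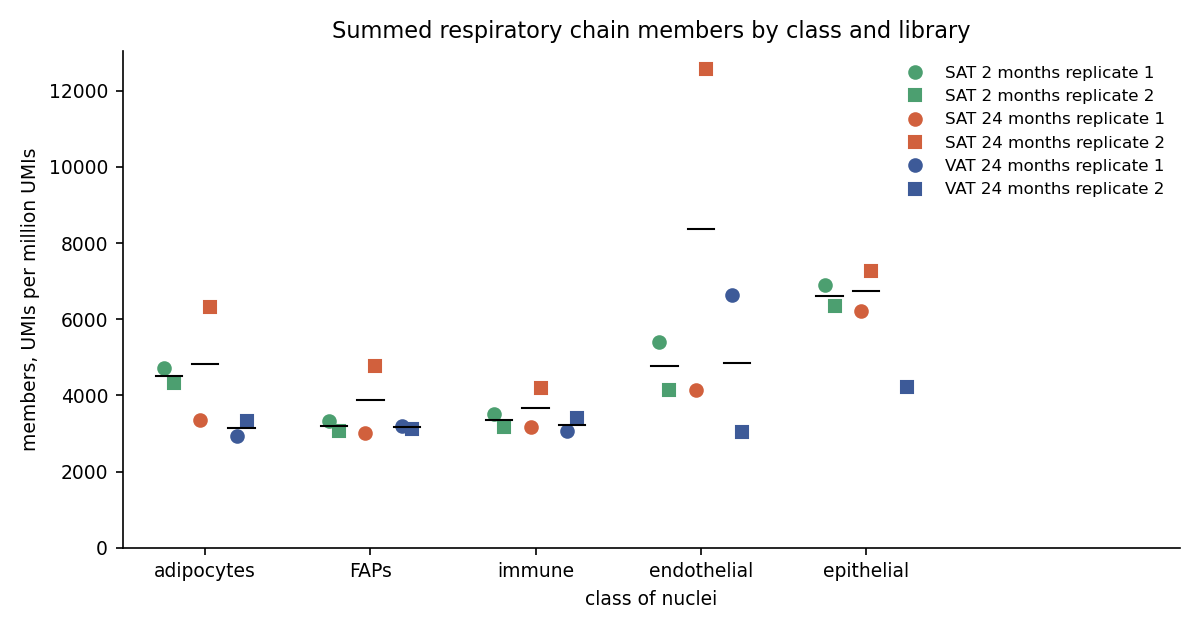
Summed members in CPM (y axis) for 5 classes of nuclei (x axis), 1 point per library with at least 20 nuclei of the class, and a bar at the mean of each group of 2. SAT 24 months replicate 2 (orange square) is the highest point in every class, at 12568 in endothelial and 4186 in immune nuclei.

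In adipocytes the 5 complexes followed the same pattern over libraries, and the complex I assembly factors did not. Complex I summed to 1786 and 1725 CPM in young SAT, 1373 and 2407 in SAT at 24 months, and 1217 and 1363 in VAT. Complex IV, cytochrome c oxidase, summed to 829.8 and 684.9, 587.8 and 1381, and 453.3 and 553.8. Complex V, ATP synthase, summed to 1081 and 963.1, 674.6 and 1359, and 618.9 and 685.4. Complex III, the cytochrome bc1 complex, summed to 549.4 and 469.7, 306.0 and 657.1, and 269.4 and 361.9, and complex II to 333.1 and 327.8, 226.0 and 338.0, and 212.5 and 235.8. In each of these, replicate 2 of SAT at 24 months was the highest library, and both VAT libraries were below both young SAT libraries. The assembly factors, which build complex I and are not part of the finished enzyme, summed to 140.4 and 150.9, 178.5 and 179.1, and 168.9 and 134.3. Between the libraries of SAT at 24 months, replicate 2 over replicate 1 was 1.003-fold for the assembly factors, 1.495-fold for complex II, 1.754-fold for complex I, 2.014-fold for complex V, 2.148-fold for complex III and 2.35-fold for complex IV. The assembly factors, equal in these libraries, were higher there than in either young library.

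**Figure D2:**
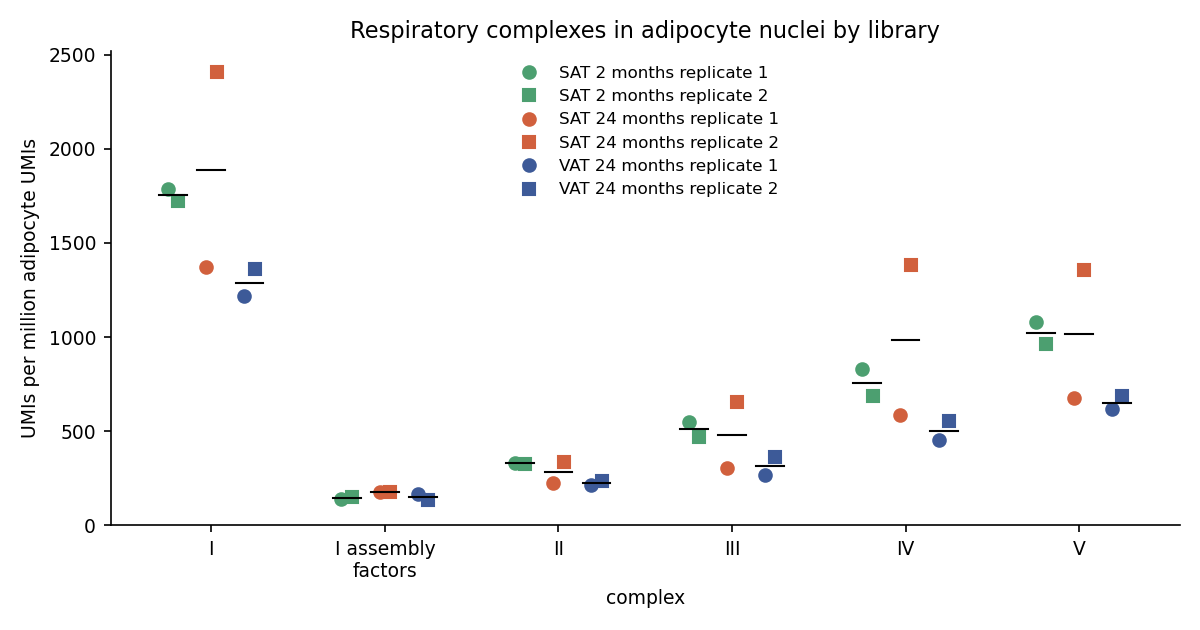
CPM of adipocyte UMIs (y axis) summed over the members of each complex and over the complex I assembly factors (x axis), 1 point per library and a bar at the mean of each group of 2. The points of SAT at 24 months (orange) lie far apart for complexes I to V and together, at 178.5 and 179.1, for the assembly factors.

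The first comparison asked how SAT adipocytes differ between 24 and 2 months. Summed over members, the group means were 4834 ± 2105 at 24 months and 4520 ± 281.1 at 2 months (SD, n = 2 each), a 1.069-fold ratio (log2 0.10) that was smaller than the spread between replicates (SD 0.66, log2). Of 86 members tested, 3 rose and 1 fell with edgeR's quasi-likelihood test at a Benjamini-Hochberg adjusted p under 0.05, which is 4.65% of the members beside 16% of all 12794 genes (7.03% higher, 8.99% lower). Scaling by library size without TMM changed the split over all genes from 899 higher and 1150 lower to 686 and 1579, and moved the median of all genes from 0.00 to -0.17 and that of the members from 0.21 to 0.05. In all, 57 of the 86 log2 changes were above 0, with a median of 0.21, beside 49.8% and 0.00 over all genes. By complex, the median was 0.21 over 36 genes of complex I, 0.49 over 8 assembly factors, -0.10 over 4 genes of complex II, 0.18 over 9 of complex III, 0.41 over 12 of complex IV and 0.18 over 17 of complex V.

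Ndufb3, an accessory subunit in the membrane arm of complex I, was at 78.03 and 98 CPM at 2 months and at 124.0 and 207.0 at 24 months. Both older libraries lay above both younger ones, and VAT was between, at 103.7 and 112.4. The log2 change was 1.08 ± 0.27 (SE), with an adjusted p of 0.020 by edgeR. The row (chr1:58625541-58636536, GRCm39, plus strand) overlaps Hycc2 on the other strand. Ndufs5, an accessory subunit facing the intermembrane space, was at 5.38 and 7.89 CPM at 2 months and at 16.5 and 21.7 at 24 months, with 12.1 and 13.7 in VAT. No younger library reached an older one, in counts of 10 and 7 against 24 and 121 UMIs. The log2 change was 1.75 ± 0.46, with an adjusted p of 0.025 by edgeR and 0.098 by DESeq2. Cox6a1, the widely expressed isoform of a small subunit of complex IV, was at 138.8 and 82.2 at 2 months and at 139.2 and 299.6 at 24 months, with 84.4 and 98.7 in VAT. Here replicate 1 of the older group was level with the higher young library, and replicate 2 was above it. The log2 change was 1.12 ± 0.34, with an adjusted p of 0.045 by edgeR. It was not called when scaled without TMM (0.077), in nuclei under 5% mitochondrial UMIs (0.127) or over 2000 UMIs (0.104), or with only the 4 SAT libraries in the fit (0.058).

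The member that fell was 1 of the 2 rows named Atp5o (ENSMUSG00000116933), at 18.8 and 25.9 CPM at 2 months and at 6.89 and 5.55 at 24 months, with 10.9 and 5.48 in VAT. Its log2 change was -1.71 ± 0.48, with an adjusted p of 0.033 by edgeR and 0.157 by DESeq2, and without the filter on low counts it was not called (0.075, edgeR), while 10 other members were (9 higher, Ndufb3, Ndufs5 and Cox6a1 among them), beside 7.44% of all genes. This row spans 243 kb (chr16:91481286-91723870, GRCm39, minus strand) and overlaps 10 genes, among them Donson, Cryzl1 and Itsn1, so its UMIs may belong to a neighbour. The other Atp5o row, the short gene for the stalk subunit of ATP synthase, held 0 to 33 UMIs per library and was at 3.06 ± 2.05 at 2 months and 3.64 ± 3.21 at 24 months. Without the 24-month replicate 2, 1 other member was called (Ndufb5, lower), beside 10.1% of all genes, and the median log2 change of the members tested was -0.37. Without the 24-month replicate 1, 19 of 88 members were called, 18 of them higher, with a median of 0.60, beside 14.8% of all genes called. The calls of Ndufb3, Ndufs5, Cox6a1 and the Atp5o row were not kept by edgeR when either young library was left out. The share of all genes called in those fits is not given here, so the loss is not shown to be particular to the members. Ndufb3, Ndufs5 and Cox6a1 lost their call without the 24-month replicate 2, with adjusted p of 0.151, 0.117 and 0.362, and the Atp5o row lost it too (0.172). When any 1 library was left out, the log2 change ran from 1.48 to 1.99 for Ndufs5, from -1.90 to -1.44 for the Atp5o row, from 0.73 to 1.46 for Ndufb3 and from 0.53 to 1.62 for Cox6a1.

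The promoters of 5 members are shown for a sequence feature that the naming rule did not use, and were picked from the called members and for their matches. Nuclear respiratory factor 1 (NRF1) is a transcription factor known to bind promoters of many of these genes. The letters GCGCANGC, the core of its binding motif with 1 free base, were searched on both strands in the 250 bases before the gene start, from RefSeq (GRCm38.p6). Of 96 symbols, 74 matched a promoter. The letters were present in 19 of them (25.68%), against 8.348% of 27025 genes, and the stricter GCGCATGC, which is contained in it, in 9 (12.16%) against 2.298%. An ETS-type motif (CCGGAAGT) was present in 3 (4.054%, against 2.927%), a YY1-type motif (AAGATGGC) in 1 (1.351%, against 1.584%) and an ERR-type motif (TCAAGGTCA) in 1 (1.351%, against 0.3737%). The mean share of G and C was 56.81% in members and 52.96% in all genes, and its part in the count of NRF1-type matches was not tested. The lines below give the called members Cox6a1, Ndufs5 and Ndufb3, then Atp5l, called in T cells below, and Sdha, the catalytic subunit of complex II, which was not called but has 3 matches. Each is read 5′ to 3′ on the strand of the gene, with matches to the NRF1 letters on either strand in capitals. Ndufb3 shows no match in this window.
Cox6a1, chr5:115348959-115349208, minus strand: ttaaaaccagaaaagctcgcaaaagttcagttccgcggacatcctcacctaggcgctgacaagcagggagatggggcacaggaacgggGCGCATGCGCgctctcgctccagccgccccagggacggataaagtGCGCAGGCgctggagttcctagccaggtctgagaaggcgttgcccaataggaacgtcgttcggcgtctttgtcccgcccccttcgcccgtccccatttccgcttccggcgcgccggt
Ndufs5, chr4:123718187-123718436, minus strand: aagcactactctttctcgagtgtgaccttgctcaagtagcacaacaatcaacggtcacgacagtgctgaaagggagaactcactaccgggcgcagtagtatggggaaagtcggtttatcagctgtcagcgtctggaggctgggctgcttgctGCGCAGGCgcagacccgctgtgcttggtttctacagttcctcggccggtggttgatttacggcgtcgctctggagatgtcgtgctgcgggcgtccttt
Ndufb3, chr1:58586147-58586396, plus strand: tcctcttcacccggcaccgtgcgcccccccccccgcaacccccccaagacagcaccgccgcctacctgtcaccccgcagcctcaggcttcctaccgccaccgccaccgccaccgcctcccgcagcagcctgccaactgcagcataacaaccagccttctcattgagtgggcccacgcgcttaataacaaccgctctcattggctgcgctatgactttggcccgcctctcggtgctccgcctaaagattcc
Atp5l, chr9:44920743-44920992, minus strand: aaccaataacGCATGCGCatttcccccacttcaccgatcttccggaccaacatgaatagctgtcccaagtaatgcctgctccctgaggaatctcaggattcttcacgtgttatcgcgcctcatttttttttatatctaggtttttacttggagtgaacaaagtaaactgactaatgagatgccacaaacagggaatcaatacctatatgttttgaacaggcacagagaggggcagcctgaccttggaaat
Sdha, chr13:74350241-74350490, minus strand: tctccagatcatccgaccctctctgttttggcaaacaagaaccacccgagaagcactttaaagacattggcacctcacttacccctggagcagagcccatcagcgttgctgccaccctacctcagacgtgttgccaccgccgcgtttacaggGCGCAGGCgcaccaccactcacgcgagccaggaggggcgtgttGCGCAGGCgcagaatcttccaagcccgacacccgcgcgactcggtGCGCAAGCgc

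The second comparison set VAT against SAT adipocytes at 24 months. Summed members were at 3137 ± 278.4 in VAT and 4834 ± 2105 in SAT (SD, n = 2 each), a 0.649-fold ratio (log2 -0.62) within the spread between replicates (SD 0.66, log2). Of 86 members tested, 0 were called by edgeR, against 0.156% of all genes, and 22 had an unadjusted p under 0.05. DESeq2 called 0 as well, with 11 at an unadjusted p under 0.05, while edgeR with the filter on low counts left off called 4 lower (Atp5g3, Cox4i1, Cox6a1 and Ndufa4), beside 0.463% of all genes. Of the 86, 8 log2 differences were above 0, with a median of -0.59, beside 47.8% and -0.02 over all genes. The median was -0.96 over 12 genes of complex IV, -0.64 over 9 of complex III, -0.59 over 36 of complex I and over 17 of complex V, -0.38 over 4 of complex II, and -0.32 over 8 assembly factors.

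The smallest p was that of Atp5g3, a gene for the rotating c-ring of ATP synthase, at 52.7 and 52.1 CPM in VAT against 85.5 and 167.8 in SAT at 24 months. Its log2 difference was -1.23 ± 0.31, with an adjusted p of 0.213 by edgeR. Cox4i1, the regulatory subunit of complex IV that binds ATP, was at 96.5 and 109.7 in VAT against 150.9 and 374.5 in SAT, a log2 difference of -1.33 ± 0.35 with an adjusted p of 0.276 by edgeR. Cox6a1 was at 84.4 and 98.7 against 139.2 and 299.6, with -1.25 ± 0.36 and an adjusted p of 0.33 by edgeR. In each of the 3 genes both VAT libraries were below both SAT libraries of this age. Without SAT 24 months replicate 1, 20 of 88 members were called, all lower in VAT, beside 1.85% of all genes. Without SAT 24 months replicate 2, 0 were called, beside 0.398% of all genes, 2 had an unadjusted p under 0.05 and the median was -0.12. The age and depot comparisons share the libraries of SAT at 24 months.

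Of the core and catalytic subunits of adipocytes described here, 0 were called by edgeR in either comparison. Ndufs1, the largest iron-sulfur subunit of complex I, was at 93.6 and 95.8 CPM in young SAT, 82.0 and 99.0 at 24 months and 72.5 and 35.6 in VAT. Ndufv1, the NADH-binding subunit, was at 44.7 and 30.4, 14.5 and 46.4, and 26.7 and 52.1. For both genes the ranges of the age groups overlapped.

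In complex II, Sdha, the flavoprotein, was at 146.4 and 141.9, 87.5 and 139.9, and 87.5 and 106.9, and Sdhb, its iron-sulfur partner, at 65.7 and 54.1, 64.1 and 81.5, and 59.5 and 52.1. The membrane anchors Sdhc and Sdhd were at 62.4 and 75.5, 50.3 and 70.6, and 47.9 and 30.2, and at 58.7 and 56.3, 24.1 and 46.03, and 17.6 and 46.6. Sdha and Sdhd were lower in both libraries of either 24-month group than in both young libraries, and neither passed the test (adjusted p 0.69 and 0.41 by edgeR for age).

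In complex III, cytochrome c1 (Cyc1) was at 74.8 and 57.5, 25.5 and 69.1, and 29.3 and 49.4, the core protein Uqcrc1 at 75.9 and 67.6, 36.5 and 70.6, and 30.1 and 52.1, and the Rieske protein Uqcrfs1 at 52.7 and 60.8, 20.7 and 50.9, and 24.4 and 27.4. All VAT values of the 3 genes lay below both young SAT values.

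Cox5a, a structural subunit of complex IV, was at 59.7 and 56.3, 35.8 and 81.5, and 29.3 and 32.9. In complex V, the catalytic core subunits Atp5a1 and Atp5b were at 178.7 and 149.8, 91.0 and 151.5, and 85.6 and 54.8, and at 170.0 and 157.7, 84.8 and 245.4, and 95.3 and 139.8. In SAT at 24 months replicate 2 was above replicate 1 for each of these subunits.

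In adipocytes, member levels were higher in nuclei with 5 to 15% mitochondrial UMIs than in those under 1%, in each of the 5 libraries with enough nuclei of both. So were the cytosolic ribosomal proteins in the same 5, for example at 5714 against 1865 CPM in SAT 24 months replicate 2, beside 11772 against 3845 for the members. The share of UMIs from mtDNA-encoded genes is a common sign of how much cytoplasm stayed with a nucleus. In adipocytes the 13 mtDNA-encoded subunits summed to 8664 and 4148 CPM in young SAT, 18343 and 22062 in SAT at 24 months, and 6281 and 29407 in VAT. VAT replicate 2, with the most mtDNA-encoded RNA, had the lowest member level but 1, at 3334. Among adipocyte nuclei under 1% mitochondrial UMIs, members were at 4081 and 4003 CPM in young SAT, 2611 and 3845 in SAT at 24 months, and 2652 and 2798 in VAT. All 24-month libraries then lay below both young ones, replicate 2 of SAT the closest. The means were 3228 ± 872.5 and 4042 ± 55.4 (SD, n = 2 each), a 0.799-fold ratio (log2 -0.32), so the summed age ratio turned from above to below 1 in these nuclei. Among nuclei with 5 to 15% mitochondrial UMIs, members were at 7149 in SAT 2 months replicate 1, 5294 and 11772 in SAT at 24 months, and 7679 and 4396 in VAT, with 31 to 497 nuclei each. In VAT replicate 2 the level did not climb steadily, at 2798 under 1% and 2548 between 1 and 2%. In nuclei under 1%, edgeR called 2 of 81 members for age, beside 17.3% of all genes, 1 higher and 1 lower, with a median log2 change of -0.18. Cox6a1 was then at 0.31 (adjusted p 0.592) and Ndufs5 at 1.33 (adjusted p 0.188). The part of the mitochondrial share in the level of replicate 2 was not tested.

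**Figure D3:**
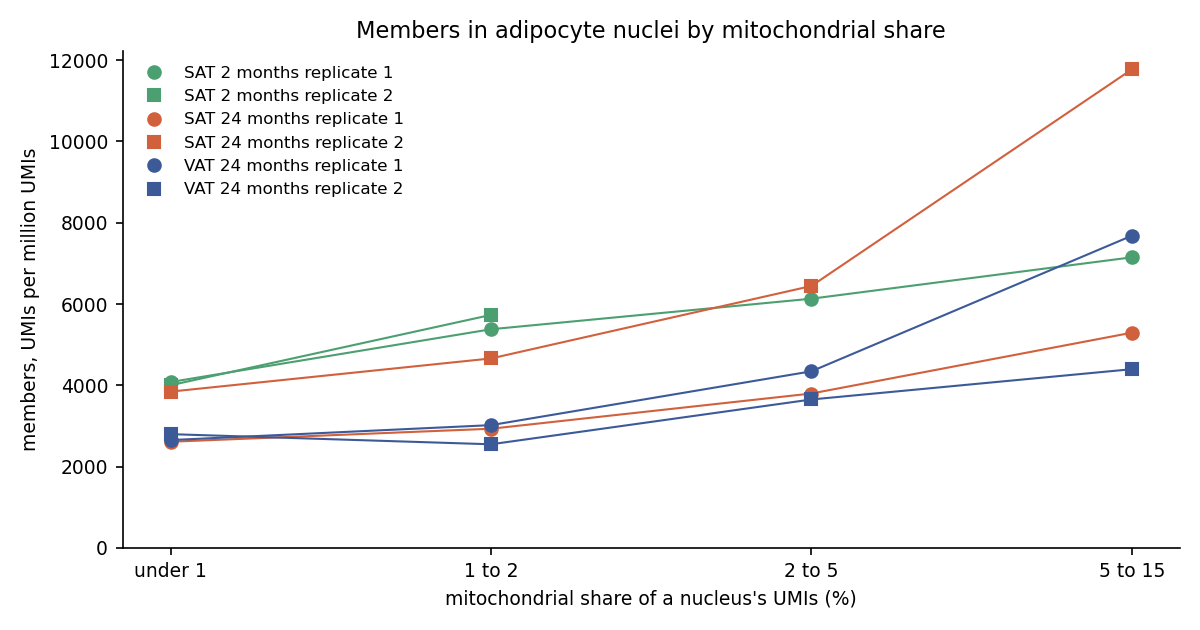
Summed members in CPM (y axis) of adipocyte nuclei in 4 bins of their mitochondrial share (x axis, %), 1 line per library, bins with at least 20 nuclei. Between the lowest and the highest bin the line of SAT 24 months replicate 2 climbs from 3845 to 11772 and that of VAT 24 months replicate 2 from 2798 to 4396.

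A cluster of adipocytes led by Cfd, Adipoq and Scd1 had the highest member level of the 5 adipocyte clusters, 9220 CPM against 3173 to 4798 in the others. It held 11.82 and 11% of the adipocyte nuclei of SAT at 2 months, 9.292 and 17.97% at 24 months, and 4.916 and 12.39% in VAT. Within this cluster, members were at 6161 and 5576, 6067 and 12323, and 4467 CPM (VAT replicate 1). Without it, adipocytes were at 4521 and 4149, 3040 and 4914, and 2868 and 3122, so that replicate 2 of SAT at 24 months stayed the highest library by a smaller margin. Of the other adipocyte clusters, the one with the lowest member level, led by Gm31517 and Adamts5 and at 3173, held 21.74 and 19.45% of adipocyte nuclei in SAT at 2 months, 34.66 and 32.46% at 24 months, and 37.06 and 35.4% in VAT. These shares are not compared by a test.

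In adipocytes, member genes that are short differed more between the libraries of SAT at 24 months than long ones. Of 88 members with at least 20 UMIs in these libraries, 83 were higher in replicate 2. The median log2 ratio of replicate 2 over replicate 1 was 1.28 in the 30 shortest members (0.231 to 6.93 kb), 1.07 in the middle 28 and 0.59 in the 30 longest (12.4 to 242.6 kb). Spearman's rho of gene length and ratio was -0.478 across these members and -0.392 across all 13223 genes with as many UMIs, a description across genes of 2 libraries, which are not independent replicates. The 1915 genes of all kinds as short as the shortest 30 members had a median of 0.55. Ndufs4, an accessory subunit encoded by a gene of 102.8 kb, was at 123.4 and 130.2 in these libraries, whereas Cox6a1, at 3.35 kb, was at 139.2 and 299.6.

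**Figure D4:**
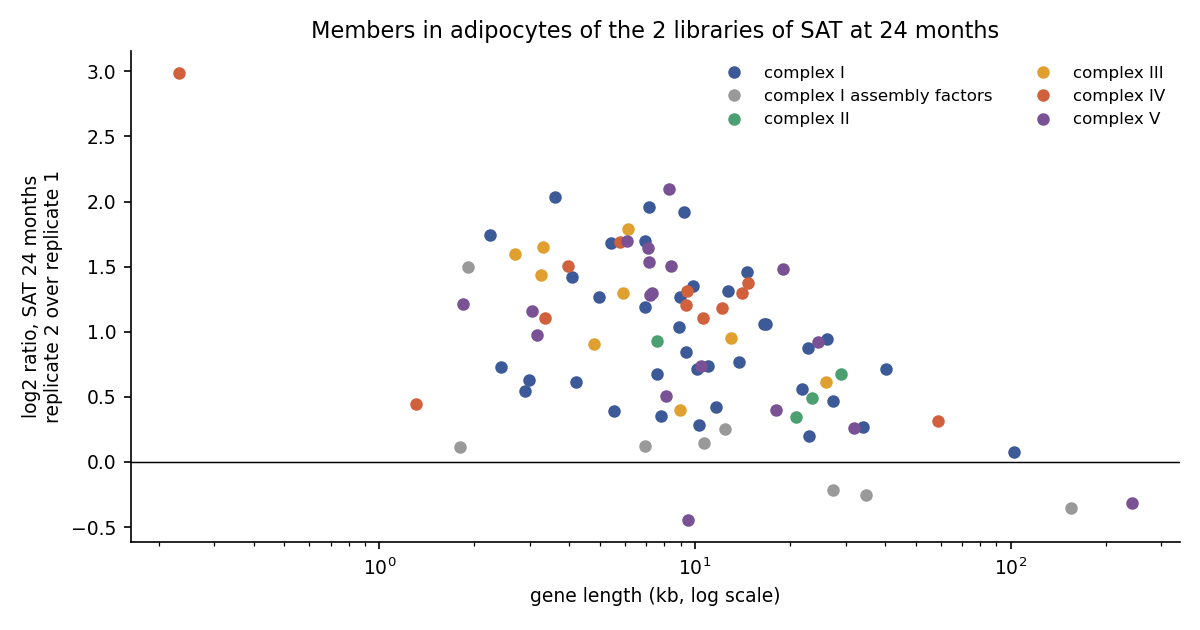
Log2 ratio of replicate 2 over replicate 1 of SAT at 24 months in adipocytes (y axis) against gene length in kb (x axis, log scale), 1 point for each of 88 members, coloured by complex. Most points are above 0, and the median falls from 1.28 in the shortest to 0.59 in the longest members, while 7 of the 8 complex I assembly factors lie between -0.35 and 0.25.

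In SAT T cells, 4 of 82 members tested rose between 2 and 24 months and 0 fell with edgeR, 11 having an unadjusted p under 0.05, beside 14.6% of all 12144 genes (8.57% higher, 6.02% lower). In VAT, replicate 1 had 13 T cells and was left out of the fit, and the depots were not compared. Ndufs4, which stabilises the NADH-oxidising arm of complex I, was at 98.7 and 95.7 CPM at 2 months and at 156.6 and 163.4 at 24 months. The log2 change was 0.78 ± 0.21 (adjusted p 0.013, edgeR). Atp5pb, the b subunit of the peripheral stalk of ATP synthase, was at 55.88 and 54.99 against 92.7 and 103.0, a log2 change of 0.86 ± 0.24 (adjusted p 0.015, edgeR). Atp5l, the g subunit in its membrane part, was at 12.6 and 20.2 against 37.6 and 42.6, a log2 change of 1.30 ± 0.40 (adjusted p 0.025, edgeR). Cox6c, a small subunit of complex IV, was at 59.95 and 45.3 against 90.2 and 78.2, a log2 change of 0.78 ± 0.26 (adjusted p 0.038, edgeR). In all 4 genes both older libraries were above both younger ones, and VAT replicate 2 was at 116.6 (Ndufs4), 42.3 (Atp5pb), 10.3 (Atp5l) and 61.5 (Cox6c). Cox6c overlaps Vps13b on the other strand and has a short near-copy, Cox6c2, so its reads may be shared. The counts behind the older libraries are low, at 125 and 46 UMIs for Ndufs4 and 30 and 12 for Atp5l.

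The sum over members in T cells was 3793 ± 337.5 at 24 months and 3520 ± 230.0 at 2 months (SD, n = 2 each), and 45 of 82 log2 changes were above 0, with a median of 0.08, beside 47.6% and -0.04 over all genes. The calls in T cells were not kept by every test. DESeq2 called 0 members, with 3 at an unadjusted p under 0.05, and in nuclei with over 2000 UMIs 0 were called by edgeR, with 4 at an unadjusted p under 0.05 and Atp5pb at a log2 change of -0.01. With the filter on low counts left off 0 were called, beside 4.70% of all genes. Without either young library the calls of the 4 genes were not kept by edgeR. The share of all genes called is not given here for DESeq2, for nuclei over 2000 UMIs or without a young library. These losses are thus not shown to be particular to the members. Without the older replicate 2, 9 of 86 were called, 6 higher and 3 lower, with the 4 genes among them, beside 16.3% of all genes. Without the older replicate 1, 3 other members were called, beside 9.19% of all genes, and 0 of the 4, whose adjusted p were then 0.086 (Ndufs4), 0.088 (Atp5pb), 0.113 (Atp5l) and 0.381 (Cox6c). When any 1 library was left out, the log2 change ran from 0.73 to 0.80 for Ndufs4, from 0.85 to 0.90 for Atp5pb, from 1.02 to 1.75 for Atp5l and from 0.56 to 0.97 for Cox6c. Cox6c was also not called without TMM (0.064) or with a replicate block (0.072), and without batch correction of the clusters neither Cox6c (0.098) nor Atp5pb (0.051, edgeR) was. In T nuclei under 5% mitochondrial UMIs 6 members were called, 5 higher and 1 lower, beside 16.3% of all genes. Atp5l, Cox6c and Ndufs4 were among them, and Atp5pb was not, at a log2 change of 0.79 (adjusted p 0.087, edgeR).

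The T cells of the age groups came from different clusters. A cluster led by Scart1 and Il23r held 12.02 and 10.03% of the T cells in young SAT against 51.98 and 57.07% in older SAT, and a cluster led by Gm2682 and Lef1 held 51.06 and 55.89% against 29.85 and 27.17%. Within the first cluster, 0 of 69 members tested were called for age by edgeR, beside 2.82% of all genes, with 2 at an unadjusted p under 0.05. Within the second, 2 of 50 were called, Cox6a1 (higher) and Cox7a2l (lower), beside 16.1% of all genes, and 0 of the 4 genes. Ndufs4 was at 133.4 and 159.4 CPM in young SAT and 199.0 and 178.1 in older SAT in the first cluster, with a log2 change of 0.40 ± 0.29 (adjusted p 0.644, edgeR), and at 93.7 and 92.5 against 106.5 and 146.3 in the second, with 0.32 ± 0.36 (adjusted p 0.607, edgeR). Over both clusters the log2 changes ran from 0.48 to 0.78 for Atp5pb, from 1.20 to 1.71 for Atp5l and from 0.72 to 0.82 for Cox6c, from 3 to 48 UMIs in an older library. The rise in T cells as a whole and the change of their clusters cannot be told apart at these counts. Summed adipocyte markers in T cells were at 421.7 and 329.7 CPM at 2 months and at 258.0 and 674.9 at 24 months, against 10124 to 11316 in adipocytes, and their part in these values was not tested. The 1 haemoglobin gene tested in T cells had a log2 change of 1.77 with age and was not called. Its change was 2.06 without SAT 24 months replicate 2, and its part was not tested either.

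In the other classes 0 members were called by edgeR in any comparison, beside 0% of all genes in FAPs, in immune nuclei and in macrophages at both comparisons, and 0.0328% (age) and 0% (depot) in endothelial nuclei, 1.14% (age) and 0% (depot) in B cells, and 0% (age) and 0.0138% (depot) in all nuclei as 1 sum. An unadjusted p under 0.05 was reached for age and depot by 3 and 3 of 67 members in FAPs, 3 and 5 of 85 in immune nuclei, 7 and 3 of 65 in endothelial nuclei, 2 and 4 of 70 in macrophages, 4 and 2 of 62 in B cells and 7 and 2 of 92 in all nuclei. DESeq2 called 0 in these, except 1 for depot over all nuclei, which was Cox6b2. With the filter on low counts left off, edgeR called 5 in endothelial nuclei for age (Atp5g3, Cox4i1, Cox6a1, Cox6b1 and Ndufa4, beside 0.856% of all genes), and over all nuclei 2 for age (Ndufa4l2 and Ndufb8, beside 2.29%) and 2 for depot (Cox6b2 and Ndufa4l2, beside 2.49%). Ndufs5 had the smallest p of members for age over immune nuclei, at 5.26 and 4.17 CPM at 2 months, 10.6 and 13.8 in SAT at 24 months, and 12.1 and 15.98 in VAT. All 24-month libraries lay above both young ones, with a log2 change of 1.46 ± 0.42 and an adjusted p of 0.53 by edgeR. In FAPs it was Uqcr11, the smallest subunit of complex III, at 28.8 and 38.2 against 80.4 and 98.9, a log2 change of 1.46 ± 0.49 (adjusted p 0.334, edgeR). In endothelial nuclei it was Ndufs4, at 21.8 and 59.0 against 114.4 and 118.7, a log2 change of 1.87 ± 0.64 (adjusted p 0.358, edgeR). For Ndufs5, Uqcr11 and Ndufs4 both SAT groups did not overlap.

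The other members with the smallest p for age in each class, 3 in all, had adjusted p of 0.316 to 0.601 (edgeR). In FAPs the next for age were Ndufs4, at 74.8 and 43.6 CPM in young SAT and 120.6 and 157.6 in older SAT, and Uqcrc2, a core protein of complex III, at 43.1 and 40.9 against 134.0 and 83.4. In immune nuclei they were Cox6b1, at 41.1 and 33.5 against 52.1 and 84.1, and Atp5l, at 12.7 and 16.3 against 33.5 and 23.7. In macrophages they were Ndufb4, Ndufa4 and Atp5c1, with log2 changes of 1.96, 1.12 and 1.003, and in endothelial nuclei Cox6a1, at 87.1 and 132.8 against 108.4 and 690.7. In B cells Uqcrc2 was at 58.97 and 61.5 in young SAT, 13.4 and 24.7 in older SAT, from 3 UMIs each, and 73.3 and 61.5 in VAT, so that older SAT lay below both other groups. Atp5h and Cox6a1 followed in B cells, with log2 changes of 1.58 and 1.04. For all nuclei, Ndufs5 was at 6.20 and 5.41 against 13.5 and 22.6, and Ndufb8 and Ndufb4 had log2 changes of 3.33 and 1.27, the first from 2, 8, 10 and 74 UMIs.

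Between depots, the members with the smallest p had log2 differences below 0 in FAPs (Cox7b, Ndufb2 and Uqcr11, -1.39, -2.37 and -1.10), immune nuclei (Atp5mpl, Atp5pb and Uqcrfs1, -1.22, -0.79 and -1.29), endothelial nuclei (Cox7a2, Sdhd and Atp5a1, -2.15, -1.99 and -1.21) and macrophages (Atp5mpl, Ndufa4 and Cox7a2, -1.92, -1.35 and -1.83), and above 0 in B cells (Uqcrc2, Ndufa6 and Sdhd, 1.77, 2.44 and 2.02). Atp5mpl, a small membrane subunit of ATP synthase, was at 29.8 and 42.04 CPM in older SAT and 17.3 and 14.9 in VAT over immune nuclei, where the groups did not overlap. Over all nuclei, Cox7b and Cox4i1 had differences of -1.11 and -1.19 beside the positive one of Cox6b2. Apart from Cox6b2, given below, the adjusted p of the members named in this comparison ran from 0.439 to 0.999 (edgeR). These values moved with single libraries: when any 1 was left out, Ndufa6 in B cells ran from 1.04 to 7.54, Cox7a2 from -2.98 to -0.57 in endothelial nuclei and from -3.36 to -0.94 in macrophages, and Cox4i1 over all nuclei from -1.77 to -0.23.

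In endothelial nuclei the libraries of SAT at 24 months lay further apart than in the other classes with a fit. Replicate 2 had 377 nuclei of this class, but only 53 when clusters were built without batch correction, and replicate 1 had 82 and 68. Cox6b1, a subunit of complex IV that faces the intermembrane space, was at 21.8 and 14.8 CPM at 2 months and at 48.2 and 323.0 at 24 months, with 154.9 and 13.04 in VAT. Replicate 1 at 24 months rests on 8 UMIs, against 2 and 1 in the young libraries. The log2 change was 3.71 ± 1.43 (adjusted p 0.392, edgeR), and 1.45 to 4.51 when any 1 library was left out. Over 65 members, the median log2 change with age was 1.25, beside 0.14 over all genes, and -1.005 between depots, beside -0.06. Adipoq, which marks adipocytes, was at 1194 CPM in endothelial nuclei of replicate 2 against 108.4 in replicate 1, and haemoglobin at 670.3 against 114.4. The 7 adipocyte markers summed to 4407 against 1096, and their part in the member level was not tested. Without replicate 2 the summed log2 ratio for age in endothelial nuclei went from 0.81 to -0.20.

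The age effects of adipocytes and immune nuclei were set against each other in a fit with the library as a block. The difference was called for 0 of 86 members by edgeR, beside 0.752% of all 15817 genes, and 2 members had an unadjusted p under 0.05. Without SAT 24 months replicate 2 it was called for 0 of 88, with 3 unadjusted. The smallest p was that of Ndufaf4, an assembly factor of complex I, with a difference of 1.41 ± 0.47 (log2, adipocytes minus immune nuclei, adjusted p 0.191, edgeR). The members called in adipocytes are thus not shown to change differently in immune nuclei.

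Several subunits exist as isoforms, and the levels of the rarer ones differed between classes. Intervals are exact Poisson 95% intervals that cover counting error only, and levels are compared between classes for the same gene. Cox4i2, the isoform of Cox4i1 known from lung and from oxygen-sensing cells, had 116 UMIs in all. Of these, 32 lay in the 326 nuclei of a cluster led by Rgs5, a pericyte gene, and by haemoglobin genes, at 34.9 CPM (23.9 to 49.3), against 0.67 in adipocytes. This cluster was nearest to the smooth muscle or pericyte list, but its leading genes include the endothelial genes Aqp1, Adgrf5 and Gpihbp1, so it is called by its leading genes here. Ndufa4l2, a hypoxia-induced relative of Ndufa4, had 137 UMIs, of which 52 lay in the same cluster, at 56.7 CPM (42.4 to 74.4), and 32 in endothelial nuclei, at 19.6 (13.4 to 27.6), against 0.56 in adipocytes. In that cluster 26 of the 32 and 45 of the 52 UMIs came from SAT 24 months replicate 2, which also supplied 194 of the 326 nuclei. Without that library, the cluster was at 24.3 CPM for Cox4i2, from 6 UMIs, and at 28.3 for Ndufa4l2, from 7, and endothelial nuclei were at 5.87 for Ndufa4l2, from 5.

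Cox6a2, the heart and skeletal muscle isoform of Cox6a1, had 35 UMIs, of which 15 lay in 195 nuclei with markers of plasmacytoid dendritic cells, at 47.5 CPM (26.6 to 78.4). These 15 came from 4 libraries, and the 7165 adipocyte nuclei held 1. The 84 skeletal muscle nuclei held 3, at 23.3 (4.80 to 67.96), all in SAT 24 months replicate 2. Cox6b2, the testis isoform of Cox6b1, had 710 UMIs, of which 284 lay in the 1773 mesothelial nuclei, at 74.9 CPM in VAT replicate 1 and 67.2 in replicate 2. Adipocytes ran from 2.76 to 7.89 over libraries. FAPs were at 83.5 in VAT replicate 2, from 18 UMIs, and at 0 to 14.2 in the other libraries, and epithelial nuclei at 98.2 in VAT replicate 2, from 7 UMIs, and at 2.05 to 11.99 in SAT, so that within VAT replicate 2 mesothelial nuclei were not the highest. The 84 skeletal muscle nuclei were at 69.8 (31.9 to 132.4), from 9 UMIs, and lay at 168.2 in VAT replicate 2 and at 0 in SAT 24 months replicate 2. Of the mesothelial UMIs, 250 were in VAT replicate 2 and 33 in VAT replicate 1. Over all nuclei it was at 7.42 and 5.80 in SAT at 2 months, 2.66 and 4.62 in SAT at 24 months and 10.4 and 39.2 in VAT, and its log2 difference between depots was 2.64 ± 0.67 (adjusted p 0.437, edgeR). Mesothelial nuclei, which line the visceral tissue, lay mostly in VAT, 238 in replicate 1 and 1527 in replicate 2. A further 332 nuclei of these clusters, all from SAT, lacked the markers in sum and were given no class.

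Of the widespread isoforms, Cox4i1 ran over libraries from 96.5 to 374.5 CPM in adipocytes, from 112.4 to 189.2 in immune nuclei, from 110.9 to 833.7 in endothelial nuclei and from 296.7 to 1054 in the cluster led by Rgs5, and SAT 24 months replicate 2 was the highest in all of them. Summed over the other 5 libraries it was at 116.1, 125.4, 153.8 and 327.7, and Ndufa4 at 40.02, 29.8, 45.8 and 133.5. Cox7a2 and Cox7a2l, which belong to the same family, had opposite orders in adipocytes and immune nuclei. Cox7a2l was at 100.3 and 94.4, 56.9 and 95.2, and 69.0 and 75.6 CPM in immune nuclei, and at 52.2 and 51.8, 28.3 and 35.1, and 23.6 and 46.6 in adipocytes. It was higher in immune nuclei in 6 of 6 libraries. Cox7a2 was at 21.0 and 19.7, 20.7 and 53.9, and 25.9 and 20.8 in immune nuclei and at 44.1 and 41.7, 35.2 and 86.3, and 29.2 and 30.2 in adipocytes, higher in adipocytes in 6 of 6. Of the 3 genes for the c-ring, which code for the same mature protein, Atp5g3 was at 84.02 and 243.8 CPM in the mesothelial nuclei of VAT, and ran over libraries from 52.1 to 167.8 in adipocytes and from 44.7 to 86.7 in immune nuclei. Atp5g1 was at 18.2 and 45.4 in mesothelial nuclei and ran from 4.24 to 17.2 in adipocytes and from 7.44 to 25.6 in immune nuclei, and Atp5g2 was at 9.08 and 7.26, from 8.60 to 12.4 and from 3.45 to 11.9. Atpif1, the inhibitor of ATP synthase, which is no member by its symbol, ran from 5.48 to 21.5 CPM in adipocytes, from 34.4 to 65.02 in immune nuclei and from 108.7 to 154.3 in epithelial nuclei, and was at 70.4 and 126.9 in mesothelial nuclei.

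Over the 51 clusters, member levels ran from 2927 to 13686 CPM, with a median of 3745. The highest cluster, of endothelial nuclei, was led by Aqp1, Gpihbp1 and Cldn5, had a median mitochondrial share of 6.68% and drew 61.3% of its 315 nuclei from SAT 24 months replicate 2. By library it was at 5230 and 16643 in SAT at 24 months and at 10693 and 3364 in VAT. The next, the cluster led by Rgs5 and the haemoglobin gene Hba-a1, was at 13403, and its median mitochondrial share was 5.61%. By library it was at 7118 and 15716 in SAT at 24 months and at 6660 and 9525 in VAT. Its adipocyte markers summed to 7874 and haemoglobin to 2219 CPM. A cluster of 72 nuclei without a class, led by Rgs5, Retnla and Scd1, was at 11939, with 57 nuclei from SAT 24 months replicate 2. Without that library the endothelial cluster was at 7317, the sixth of the 51, and the cluster led by Rgs5 and Hba-a1 at 7134, the seventh, beside a median of 3558 over clusters. Steroidogenic nuclei, of which 179 of 180 came from VAT replicate 2, were at 7491, and their larger cluster was led by Cyp11a1, a mitochondrial enzyme of steroid synthesis. A cluster of 103 nuclei without a class, led by Ppara, Gpd1 and Acaca, was at 8646 with a median mitochondrial share of only 0.471%. In it Cidea and Ucp1, genes of thermogenic adipocytes, were at 982.6 and 390.1 CPM against 10.7 and 3.07 over all nuclei, and the complex I assembly factors at 395.0 against 159.3. Of its nuclei, 92 came from VAT 24 months replicate 1.

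**Figure D5:**
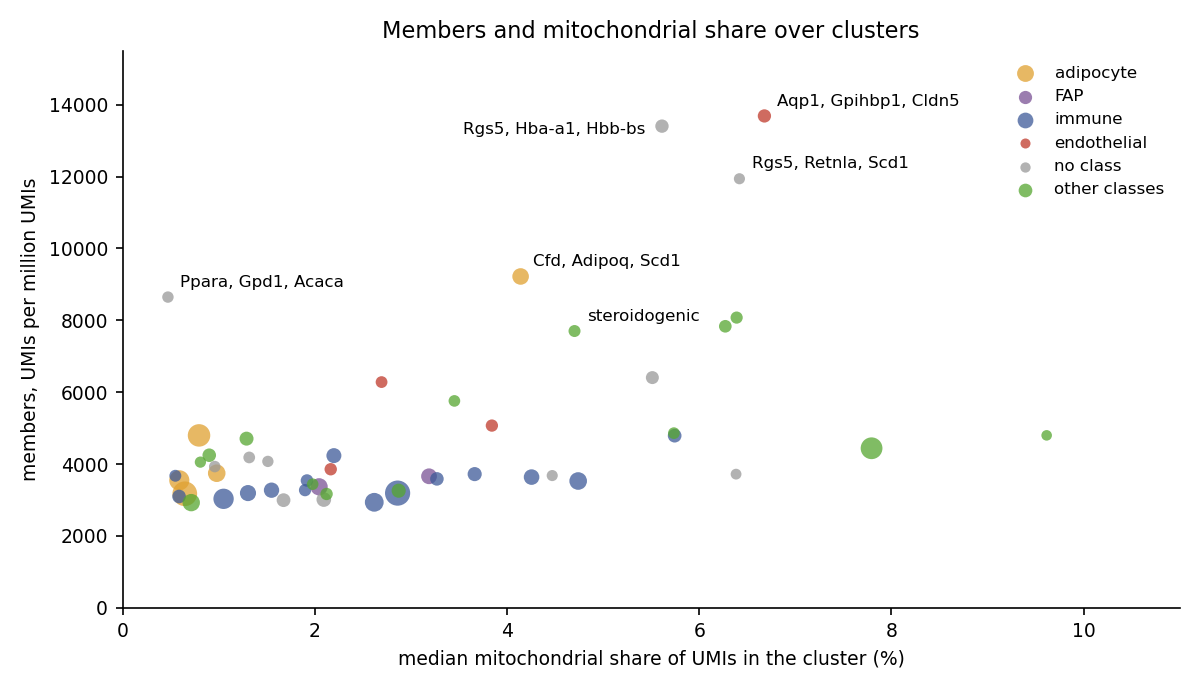
Summed members in CPM (y axis) against the median mitochondrial share of the cluster (x axis, %), 1 dot for each of 51 clusters, with its area growing with the number of nuclei and its colour giving the class. The 4 highest clusters have a share of 4.14% or more, and the cluster led by Ppara, Gpd1 and Acaca lies at 8646 with 0.471%.

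Other genes of the pathway were counted as whole lists in the same fits, in which 16% of all genes were called for age in adipocytes (10.1% without SAT 24 months replicate 2), 14.6% in T cells (16.3%) and 1.14% in B cells (1.74%). Of 8 mtDNA-encoded subunits tested in SAT adipocytes, 2 rose with age and 0 fell, mt-Nd1 by 1.94 ± 0.57 and mt-Nd5 by 2.19 ± 0.52 (log2, adjusted p 0.038 and 0.015, edgeR), with a median of 1.74 and all 8 above 0. Of 19 genes of the tricarboxylic acid cycle and pyruvate dehydrogenase, 2 fell, Pdha1 (-1.22 ± 0.29) and Dlat (-0.80 ± 0.24), both subunits of pyruvate dehydrogenase (adjusted p 0.015 and 0.045, edgeR). Of 72 mitochondrial ribosomal proteins 1 rose (Mrps28, 1.40 ± 0.31) and 0 fell, and of 70 cytosolic ribosomal proteins 0 rose and 3 fell. Without SAT 24 months replicate 2, 6 of the 8 mtDNA-encoded subunits rose, 2 of the 19 genes fell (Pdha1 and Idh3g), 1 mitochondrial ribosomal protein rose (Mrps28) and 1 fell, and 10 cytosolic ribosomal proteins fell. In 21 assembly factors of complexes II to V, 13 regulators such as Ppargc1a and Nrf1, and 6 carriers and porins, 0 were called by edgeR, with 1, 2 and 0 at an unadjusted p under 0.05, and without that library 1 carrier fell (Slc25a3). In B cells 6 of 8 mtDNA-encoded subunits rose with age, by 2.29 to 3.00 (log2), beside 0 of 62 members. The median was 2.38, and 2.64 without that library. Under 5% mitochondrial UMIs were 504 of 541 and 517 of 534 young B nuclei, against 57 of 146 and 26 of 72 older SAT ones. In the same fit 52 of 58 cytosolic ribosomal proteins were above 0, with 0 called. In adipocytes, B cells and T cells, changes of mtDNA-encoded subunits cannot be told apart from the mitochondrial share of the nuclei. In T cells 0 of 8 mtDNA-encoded subunits were called, and without that library 4 of 8 rose. Of 77 cytosolic ribosomal proteins in T cells 7 fell and 0 rose, and without that library 12 of 83 fell and 0 rose. Of the other lists, Cox14 (1.26 ± 0.38) and Mrps5 (0.95 ± 0.26) rose in T cells and Idh2 (-1.64 ± 0.51), Sco2 (-3.05 ± 0.88), Mrps7 (-1.29 ± 0.41) and Ppargc1b (-1.08 ± 0.34) fell (log2, adjusted p 0.012 to 0.033, edgeR). Without that library Cox14 was not called, the other 5 were, and Mrpl1 (1.06), Pdha1 (-0.96) and Slc25a5 (-1.09) were called as well. Between depots 0 genes of these lists were called in adipocytes by edgeR, with 0 to 10 genes a list at an unadjusted p under 0.05. All 6 carriers and porins and 17 of 19 genes of the tricarboxylic acid cycle list had a log2 difference below 0, against 5 and 10 without SAT 24 months replicate 2. Also below 0 were 62 of 70 cytosolic and 54 of 72 mitochondrial ribosomal proteins, against 38 of 72 and 35 of 72 without that library. So were 16 of 21 assembly factors, 7 of 8 mtDNA-encoded subunits and 7 of 13 regulators, against 12, 6 and 8.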

How the data were processed

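Nuclei of 6 libraries were captured on the Singleron platform, per the study's methods, and the authors counted reads with Celescope on GRCm39. What was deposited are UMI counts for each gene and barcode, without normalization. A nucleus was kept with more than 1000 UMIs, more than 500 genes and less than 15% of its UMIs from mitochondrial genes, after the study's limits. The 1000 variable genes held no member, mtDNA-encoded or ribosomal protein gene. The first 30 principal components were corrected by library (own implementation of Harmony), 20 neighbours were joined and clustered by Leiden at a resolution of 2.0 (scanpy 1.11.5, leidenalg 0.10.2, Python 3.11.15), and clusters with markers of another class were split once. Names came from fixed marker lists, by a rule adjusted after clusters had been seen. In a named cluster, the nuclei of a library (at least 20) whose summed counts did not show the markers got no class, 1091 nuclei in all. Scrublet marked 0.0519 to 0.562% of nuclei per library and so did not work as a doublet call, and no doublets were removed.

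Counts were summed per library and class with at least 20 nuclei. With edgeR 4.0.16 (R 4.3.3), the 3 groups were fitted together (TMM, filterByExpr, quasi-likelihood test, two-sided), and p-values were adjusted by Benjamini-Hochberg over all genes tested in a comparison of a class. Genes under 0.05 count as called. The fit was checked on simulated counts, a check of the code and not of its power or error rate in these libraries. Levels and ratios of sums over members have no test. Named members were the isoform sets, the core subunits (1 is not reported here), and, per class and contrast, all called members or, where none was called, the 3 with the smallest p. Alternatives were DESeq2 1.42.0, scaling without TMM, no filter, other nuclei limits and clusterings, a replicate block, and leaving out each library. The members and lists were chosen with earlier results of these data known. The labels used name no batch. Gene positions are from GENCODE (GRCm39), where 68 of the 97 rows overlap another gene, and strand-specific counting is not given in the sources used here. Promoters are from RefSeq (GRCm38.p6).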

Additional observations from a re-analysis of the deposited data

Results flagged for a closer look

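Nuclei outside the named classes also carried member RNA. The cluster of 103 nuclei without a class led by Ppara, Gpd1 and Acaca was at 8646.3 member CPM (UMIs per 1000000 UMIs), above the 2940 to 6322 of adipocytes in the 6 libraries. Its 7 adipocyte markers summed to 6567 CPM, against 10124 to 11316 in the adipocytes of each library, and Cox8b, the muscle and brown fat isoform of a complex IV subunit, was at 153.1 against 9.87 in adipocytes. Since 92 of its nuclei are from VAT 24 months replicate 1, this cluster and that library cannot be told apart.

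Barcodes left out for a mitochondrial share of 15% or more held member RNA too, at 6291.5 and 3935.6 CPM in young SAT, 3907.6 and 13682.8 in SAT at 24 months, and 10026.4 and 5036.3 in VAT, from 55 to 953 barcodes each. The kept nuclei of the same libraries were at 4324.7 and 3602.5, 3870.2 and 7113.7, and 3239.6 and 3984.1. The left-out barcodes were higher in 6 of 6 libraries, by the most in VAT replicate 1.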

How the results depend on the processing

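With 2 libraries per group, single libraries decided most calls. Leaving out each library in turn gave 0 to 19 members called in adipocytes for age and 0 to 20 for depot, 0 to 9 in T cells for age, and 0 to 1 for depot in FAPs, endothelial nuclei and all nuclei, the lone library being assumed to vary like the other groups. The call for depot in FAPs, endothelial nuclei and all nuclei appeared without VAT 24 months replicate 1. The summed log2 ratio ranged from -0.43 to 0.48 (age) and from -1.01 to -0.09 (depot) in adipocytes, and its age value fell below 0 without SAT 24 months replicate 2 also in FAPs, immune nuclei, endothelial nuclei, macrophages and all nuclei, while the depot value then rose above 0 in FAPs, immune nuclei, endothelial nuclei and macrophages. The filter on low counts mattered next: without it 10 members were called in adipocytes for age and 4 for depot (beside 7.44% and 0.463% of all genes), 5 in endothelial nuclei for age (0.856%), 2 and 2 over all nuclei for age and depot (2.29% and 2.49%), and 0 in T cells (4.70%). DESeq2 called 2 in adipocytes (Cox6a1 and Ndufb3, with Ndufs5 and the Atp5o row lost) and 0 in T cells for age and 1 over all nuclei for depot. The share of all genes called by DESeq2 or in nuclei over 2000 UMIs is not given here, so these counts are not set against it. In nuclei under 1% mitochondrial UMIs, an alternative chosen after seeing the data, 2 were called in adipocytes for age. In T cells 2 were called without batch correction of clusters, 0 and 2 within the clusters led by Scart1 and by Gm2682 and Lef1 (added after seeing the data, with 0 of the 4 genes called), and 0 in nuclei over 2000 UMIs, where Atp5pb turned to -0.0129 and the summed log2 ratio to -0.1742. Scaling without TMM moved the median of all genes for age in adipocytes from 0.00 to -0.17 and that of the members from 0.21 to 0.05.

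Which SAT and VAT libraries of the older mice share a mouse is not stated. The replicate number is thus no known pairing. A replicate block gave 5 members in adipocytes and 3 in T cells (Cox6c lost) for age and 0 in the other comparisons, and with 2 pairs per comparison the correlation of replicate differences ran from -0.49 to 0.123. The causes of these changes were not tested. Of the counts and sums recomputed for comparisons, 378 stayed within 1.5 times the count or within the spread and 26 did not, which does not say which members were called. Of the values recomputed for single members, 652 stayed on the same side of the threshold, 57 lost and 12 gained a call and 1 changed sign. Both tallies include counts of 0 that stayed 0 and members not called in the main fit. They are therefore no measure of how well the calls held. Removal of the nuclei marked by Scrublet was not run, and the top 5% of its scores per library were removed instead, a choice made after seeing the data. Alternatives that left under 20 nuclei in a library could not be run over 2000 UMIs for FAPs, macrophages, B cells and, for age, endothelial nuclei, under 1% mitochondrial UMIs for these classes in either comparison and for T cells, for B cells in part of the depot alternatives, or for FAPs and depot at a resolution of 1.0. Depth limits rare isoforms, where a single UMI in a class is 1 CPM or less in the larger classes.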
